A study of Homo sapiens with 5 samples.

Results

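Tandem array gene families are families whose near-identical copies stand side by side in the genome. The peaks described here are all those that the authors' annotation named after a copy of 10 such families, GAGE, USP17L, DUX4, TAF11L, REXO1L, FAM90A, PRR20, SPANX, CT45A and CT47A, in 4 deposited peak lists. They numbered 224 of 63855 deposited entries. After entries with the same interval were merged to the strongest summit, 191 of 63391 peaks remained. The FOXM1 list held 19 of them, the LC3 list 15, the control evDNA list 88 and the EBSS evDNA list 69. Members were chosen by the gene names of called peaks, and the families were picked with the peak counts of these same lists known, so counts per family are a description and no test was made of them.

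The lists came from A549, an established cell line from a human lung adenocarcinoma, and coordinates are on hg38. For the FOXM1 and LC3 lists, untreated cells grown with 10% fetal bovine serum were crosslinked and their chromatin pulled down. The antibody was either against FOXM1, which belongs to the forkhead family and drives genes of mitosis, or against LC3, whose lipid-bound form coats autophagosomes. For the evDNA lists, DNA of extracellular vesicles was sequenced without an antibody. Control evDNA came from untreated cells grown without serum, and EBSS evDNA from cells kept for 3 days in EBSS, a balanced salt solution that lacks serum and amino acids. The series title names FOXM1 as what specifies chromatin DNA to vesicles, so the comparison made here is which array copies had peaks in which lists. Each group was 1 library of 1 cell line, so no difference between lists could be tested against replicate error. CDKN2A, a gene known to be deleted in A549, had 1 control evDNA peak (chr9:21975448-21975732, fold 3.07, −log10 q 0.716, 8 fragments) and none in the other lists.

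Array copies arise by repeated duplication and stay almost identical in sequence, so a short read can match several of them equally well. DUX4 is a homeobox transcription factor of the early embryo, and its copies lie in the D4Z4 repeats near the ends of the long arms of chromosomes 4 and 10, with relatives elsewhere. GAGE, SPANX, CT45A and CT47A are cancer-testis families on chromosome X, expressed in testis and in some tumours. USP17L genes encode deubiquitinating enzymes, TAF11L genes resemble the TFIID subunit TAF11, REXO1L copies resemble the RNA exonuclease gene REXO1, FAM90A is a primate gene family, and PRR20 genes encode proline-rich proteins. The sources used here do not say how reads with several equal matches were placed. A peak at a named copy may therefore hold fragments of its sister copies, and positions of single copies are uncertain throughout.

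The likeness of the copies is shown by RefSeq promoter windows on GRCh38.p14, each 250 bases before to 50 bases after a gene's start, 5′ to 3′ on the strand of the gene. The 46 family windows compared here belong to GAGE, TAF11L, PRR20, SPANX, CT45A and DUX4 copies. No FAM90A, REXO1L, USP17L or CT47A window is among them. The TAF11L windows are shown because near-identical copies differed in whether a peak covered them. Capitals mark the base that differs from TAF11L6, and positions count from 1 at the 5′ end of the window. TAF11L6 lies on the plus strand (chr5:17528419-17528718), TAF11L7 on the minus strand with T274C (chr5:17585709-17586008), and TAF11L9 on the minus strand with A183G (chr5:17594345-17594644).
TAF11L6: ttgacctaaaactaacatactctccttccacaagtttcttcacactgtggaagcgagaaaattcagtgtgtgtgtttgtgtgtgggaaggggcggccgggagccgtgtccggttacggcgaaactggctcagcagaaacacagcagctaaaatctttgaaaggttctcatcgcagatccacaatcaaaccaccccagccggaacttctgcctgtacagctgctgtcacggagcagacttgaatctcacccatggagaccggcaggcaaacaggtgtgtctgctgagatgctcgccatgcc
TAF11L7: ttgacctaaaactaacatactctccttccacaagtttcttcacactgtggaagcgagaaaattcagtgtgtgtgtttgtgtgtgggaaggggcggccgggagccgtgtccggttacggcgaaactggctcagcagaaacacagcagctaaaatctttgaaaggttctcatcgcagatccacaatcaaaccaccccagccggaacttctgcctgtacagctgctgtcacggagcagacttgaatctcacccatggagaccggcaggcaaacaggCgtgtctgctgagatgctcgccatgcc
TAF11L9: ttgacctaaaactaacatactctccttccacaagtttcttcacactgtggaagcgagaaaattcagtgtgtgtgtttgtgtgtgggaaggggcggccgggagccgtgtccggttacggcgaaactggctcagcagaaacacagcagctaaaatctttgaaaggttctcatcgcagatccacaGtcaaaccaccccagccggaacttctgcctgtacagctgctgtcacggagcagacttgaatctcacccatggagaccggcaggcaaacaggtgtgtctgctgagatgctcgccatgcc
Of 13 TAF11L windows, 5 were identical and 8 lay within 2 bases of TAF11L6. Of those 8, only the TAF11L9 window lay under an evDNA peak, in both evDNA lists, and none lay under a FOXM1 or LC3 peak.

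The GAGE and PRR20 windows are shown as families whose starts are just as alike and had no peak. The GAGE windows lie on the plus strand, GAGE2A at chrX:49589246-49589545 and GAGE13 at chrX:49331332-49331631 with T252C against GAGE2A, in capitals. The PRR20B window also lies on the plus strand (chr13:57147238-57147537).
GAGE2A: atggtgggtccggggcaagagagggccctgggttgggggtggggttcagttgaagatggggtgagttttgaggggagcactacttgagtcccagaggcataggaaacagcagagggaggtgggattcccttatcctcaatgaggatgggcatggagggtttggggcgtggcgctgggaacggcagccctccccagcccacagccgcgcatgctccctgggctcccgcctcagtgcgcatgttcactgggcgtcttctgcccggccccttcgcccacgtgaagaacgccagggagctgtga
GAGE13: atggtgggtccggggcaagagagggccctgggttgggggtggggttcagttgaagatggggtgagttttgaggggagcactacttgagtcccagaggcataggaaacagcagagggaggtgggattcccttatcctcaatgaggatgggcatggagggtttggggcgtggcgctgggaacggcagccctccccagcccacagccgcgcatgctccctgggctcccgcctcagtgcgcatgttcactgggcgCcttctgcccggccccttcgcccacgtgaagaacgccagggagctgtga
PRR20B: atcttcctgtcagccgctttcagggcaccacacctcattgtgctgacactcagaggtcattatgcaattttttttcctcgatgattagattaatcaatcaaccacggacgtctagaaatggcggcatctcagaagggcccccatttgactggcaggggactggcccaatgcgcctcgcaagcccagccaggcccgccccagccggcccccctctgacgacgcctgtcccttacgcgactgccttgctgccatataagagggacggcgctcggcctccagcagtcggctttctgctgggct
Windows of a family were compared position by position, without alignment. Of 13 GAGE windows, which belong to 12 copies, 8 were identical and 9 lay within 2 bases of GAGE2A. GAGE1 has 2 windows. The one from 49598770 was identical to GAGE2A, and the one from 49598763 differed at 202 positions. A window outside the 9 is therefore not shown to be unlike in sequence. Of 6 PRR20 windows, 5 were identical. None of these GAGE or PRR20 windows lay under a peak of any list. The forkhead motif TAAACA, searched on both strands, was in 12.3% of all 35116 windows and in 2 of the 46 family windows, those of SPANXB1 and SPANXD. The cell cycle homology motif TTTGAA, searched the same way, was in 15.2% of all windows and in 13 of the 46, of which 10 were TAF11L windows. The 46 do not cover every family, so their motif counts do not describe the array families as a whole. A match to such letters is a description and not a binding site.

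Array copies made up a small share of each list. They were 0.170% of FOXM1 peaks (exact Clopper-Pearson 95% interval 0.102 to 0.265%) and 0.192% of LC3 peaks (0.108 to 0.317%). They were 0.304% of control evDNA peaks (0.244 to 0.374%) and 0.448% of EBSS evDNA peaks (0.349 to 0.567%). These intervals, like those of all shares given here, cover counting error only, and peaks at neighbouring copies are not independent. The order of the lists depends on the q limit: among peaks with q of at most 0.05, the shares were 3.17% for FOXM1, 2.71% for LC3, 1.74% for control and 3.39% for EBSS evDNA, so that control evDNA went from above both immunoprecipitations to below them.

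**Figure D1:**
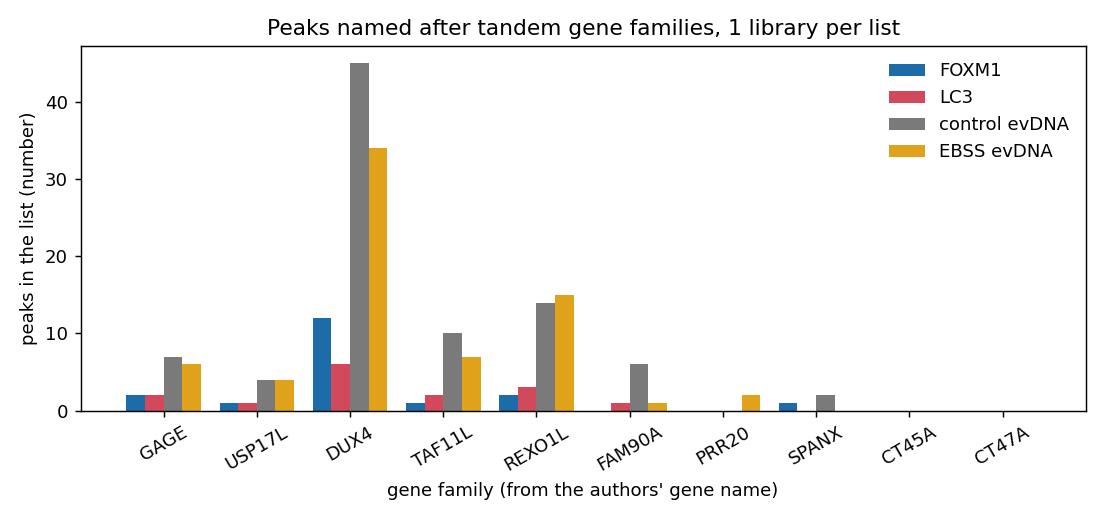
Number of peaks (y axis, bars) named after each of the 10 families (x axis) in the 4 lists, after merging, with 1 library per list and no error bars. DUX4 held the most peaks in each list, with 12, 6, 45 and 34, and CT45A and CT47A had none.

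Peaks at array copies passed the q threshold more often than the lists as a whole. At a q of at most 0.05, 7 of 19 FOXM1 members passed (36.8%, 16.3 to 61.6%), against 1.97% of all FOXM1 peaks. Of LC3 members 8 of 15 passed (53.3%, 26.6 to 78.7%), against 3.78% of the list. Of control evDNA members 67 of 88 passed (76.1%, 65.9 to 84.6%), against 13.3%, and of EBSS evDNA members 51 of 69 (73.9%, 61.9 to 83.8%), against 9.77%. The fold, which the authors' caller gave as summit over local background, followed another order. Its median over FOXM1 members was 2.52, against 2.89 for the whole list, and 2.54 over LC3 members, against 3.02. In control evDNA the members' median fold was 3.83, against 2.84, and in EBSS evDNA 4.33, against 2.80. The members thus had lower median folds than their list in both immunoprecipitations and higher ones in both evDNA lists.

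Members also met peaks of other lists more often than the lists as a whole. Of FOXM1 members, 12 of 19 overlapped a peak of another list, against 3.81% of all FOXM1 peaks, and of LC3 members 11 of 15, against 5.97%. The same held for 58 of 88 control evDNA members, against 7.66%, and 57 of 69 EBSS evDNA members, against 13.1%. Of the FOXM1 members, 9 overlapped an LC3 peak, against a background of 1.38%, 12 a control evDNA peak, against 2.05%, and 12 an EBSS evDNA peak, against 1.37%. Of the LC3 members, 9 overlapped a FOXM1 peak, against 2.01%, 11 a control evDNA peak, against 3.37%, and 11 an EBSS evDNA peak, against 1.88%. Each FOXM1 or LC3 member that met any evDNA list met both. Between the evDNA lists, 58 control members overlapped an EBSS peak, against 6.47%, and 57 EBSS members a control peak, against 12.1%. Deep, high-background regions were common among the members: 5 FOXM1, 6 LC3, 27 control and 19 EBSS members had a local background of 10 fragments or more. That was 26.3, 40.0, 30.7 and 27.5% of members, against 0.438, 0.410, 0.759 and 1.201% of the 4 lists, and the part of such regions in the overlaps was not tested.

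**Figure D2:**
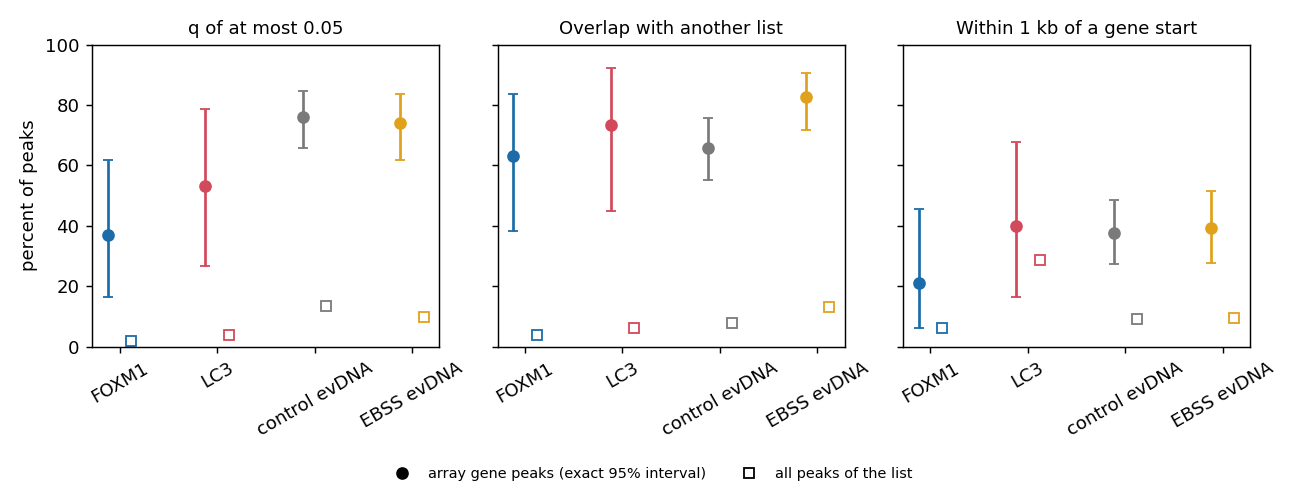
Percentage of member peaks (filled points with exact 95% intervals) that passed q of 0.05, overlapped another list or lay within 1 kb of a start, beside the percentage over all peaks of the same list (open squares). In overlap with another list the members stand at 63.2, 73.3, 65.9 and 82.6%, against 3.81, 5.97, 7.66 and 13.1%.

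Distance to a start differed less from the background. Within 1 kb of a start lay 4 of 19 FOXM1 members (21.1%, 6.05 to 45.6%), against 6.10% of the list, and 6 of 15 LC3 members (40.0%, 16.3 to 67.7%), against 28.5%. Both intervals span the value of the whole list, that of FOXM1 narrowly, with a lower end of 6.05% against 6.10%. Peaks at neighbouring copies are not independent, so the intervals are no test against the list. Of control evDNA members 33 of 88 did so (37.5%, 27.4 to 48.5%), against 9.28%, and of EBSS evDNA members 27 of 69 (39.1%, 27.6 to 51.6%), against 9.39%. Members were picked by the name of the gene from whose start the distance is counted, so these shares are a description. The median spacing of copies ran from 3297 bp in the DUX4 array of chromosome 4 to 56868.5 bp in the SPANX array. The part of this spacing in the shares was not tested.

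Peaks of the lists were gathered into places, each a chain of overlapping peaks with at least 1 member. Of 109 places, 53 held a peak of 1 list, 42 of 2 lists, 5 of 3 lists and 9 of all 4. Control and EBSS evDNA shared 56 places. FOXM1 or LC3 met evDNA at 14 places and stood without it at 11. The 9 places with all 4 lists lay in 4 families, with 4 in DUX4, 2 in GAGE, 2 in REXO1L and 1 in TAF11L. Array peaks of other gene names were left out unless their chain held a member. The 9 places are described family by family, with the number of fragments at the summit and the local background. Both were recovered from each peak's fold and p-value. Where a list had more than 1 peak in a place, its peak of highest fold was taken.

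DUX4 copies held 12 FOXM1, 6 LC3, 45 control and 34 EBSS peaks, of which 5, 4, 30 and 23 passed q of 0.05. RefSeq lists 52 copies on 11 chromosomes, of which 1, DUX4 itself, is protein-coding. A place on chromosome 4 (chr4:190179242-190180026) lay inside the RefSeq span of DUX4 (190173774 to 190185911), and the authors' annotation put it in a promoter class upstream of a DUX4 start. Its summit held 184 FOXM1, 218 LC3, 284 control evDNA and 264 EBSS evDNA fragments. The local background there was 99.1, 153, 18.2 and 15.96 fragments, so that the folds were 1.85, 1.43, 14.9 and 15.6. At DUX4L26, a pseudogene copy on chromosome 3 whose start the peaks covered or closely followed (chr3:75668881-75669631), the summits held 157, 214, 332 and 247 fragments in the same order. The background was 105, 152, 17.99 and 14.8 fragments, and the folds were 1.496, 1.41, 17.5 and 15.7, the last pair being the highest control evDNA and EBSS evDNA folds of the family. At both places all 4 lists held over 100 fragments, and the backgrounds of the 2 immunoprecipitations lay above those of the evDNA lists without overlap.

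The chromosome 10 array differed from that pattern. At DUX4L20 (chr10:133687652-133688803) the summits held 83, 97, 118 and 109 fragments over backgrounds of 14.1, 21.1, 14.3 and 11.5. The folds of 5.57 for FOXM1 and 4.43 for LC3 were the highest of any array copy in those lists, and the evDNA folds were 7.80 and 8.84. At DUX4L18 on chromosome Y (chrY:11318584-11319071) the summits held 62, 88, 138 and 112 fragments, with folds of 2.52, 2.46, 6.35 and 6.80. FOXM1 and LC3 backgrounds at DUX4L18, 23.99 and 35.2 fragments, stood above the evDNA backgrounds of 20.9 and 15.6 by less than at DUX4 and DUX4L26.

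Chromosome Y copies gave the most DUX4 peaks, with 2 FOXM1, 1 LC3, 17 control and 14 EBSS peaks, and each of them passed q of 0.05. A copy of an array is counted here as having a peak when it was the nearest copy to the peak's summit, at any distance. By this rule all 4 copies on chromosome Y had peaks. At DUX4L17 (chrY:11312310-11312811), where LC3 had none, FOXM1 held 95 fragments, control evDNA 182 and EBSS evDNA 160, with folds of 1.94, 7.03 and 7.52. The highest evDNA folds of the chromosome were at DUX4L16, 7.59 in control and 7.72 in EBSS evDNA, with 128 and 115 fragments and no FOXM1 or LC3 peak. On chromosome 20 the copies had 1 FOXM1, 0 LC3, 11 control and 8 EBSS peaks, of which 5 control and 2 EBSS peaks passed q of 0.05.

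Few copies of the large D4Z4 arrays had a peak by the rule of the nearest copy. Of 10 copies on chromosome 4, 4 had one, and the run of 6 from DUX4L7 to DUX4L3 had none in any list. The peaks given to DUX4L2 on chromosome 4 lay 15328 to 28266 bp from its start. Of 14 copies on chromosome 10, only DUX4L20 and DUX4L15 were the nearest to a peak, and the peaks lay outside the RefSeq spans of both. They lay 3984 to 5550 bp from the start of DUX4L20 and 4344 bp from that of DUX4L15. The 3 copies on chromosome 16 had none. Weaker shared places were DUX4L2 on chromosome 4 (10 FOXM1, 13 control and 14 EBSS fragments, folds 2.24, 2.45 and 2.32, at 15328 to 15807 bp from the start) and DUX4L50 on chromosome 9 (20 LC3, 33 control and 28 EBSS fragments, folds 2.40, 2.94 and 3.25). The 11 peaks named after DUX4L52 on chromosome 12, 5 of them FOXM1 peaks, lay outside that gene, up to 153314 bp from it, and none passed q of 0.05.

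**Figure D3:**
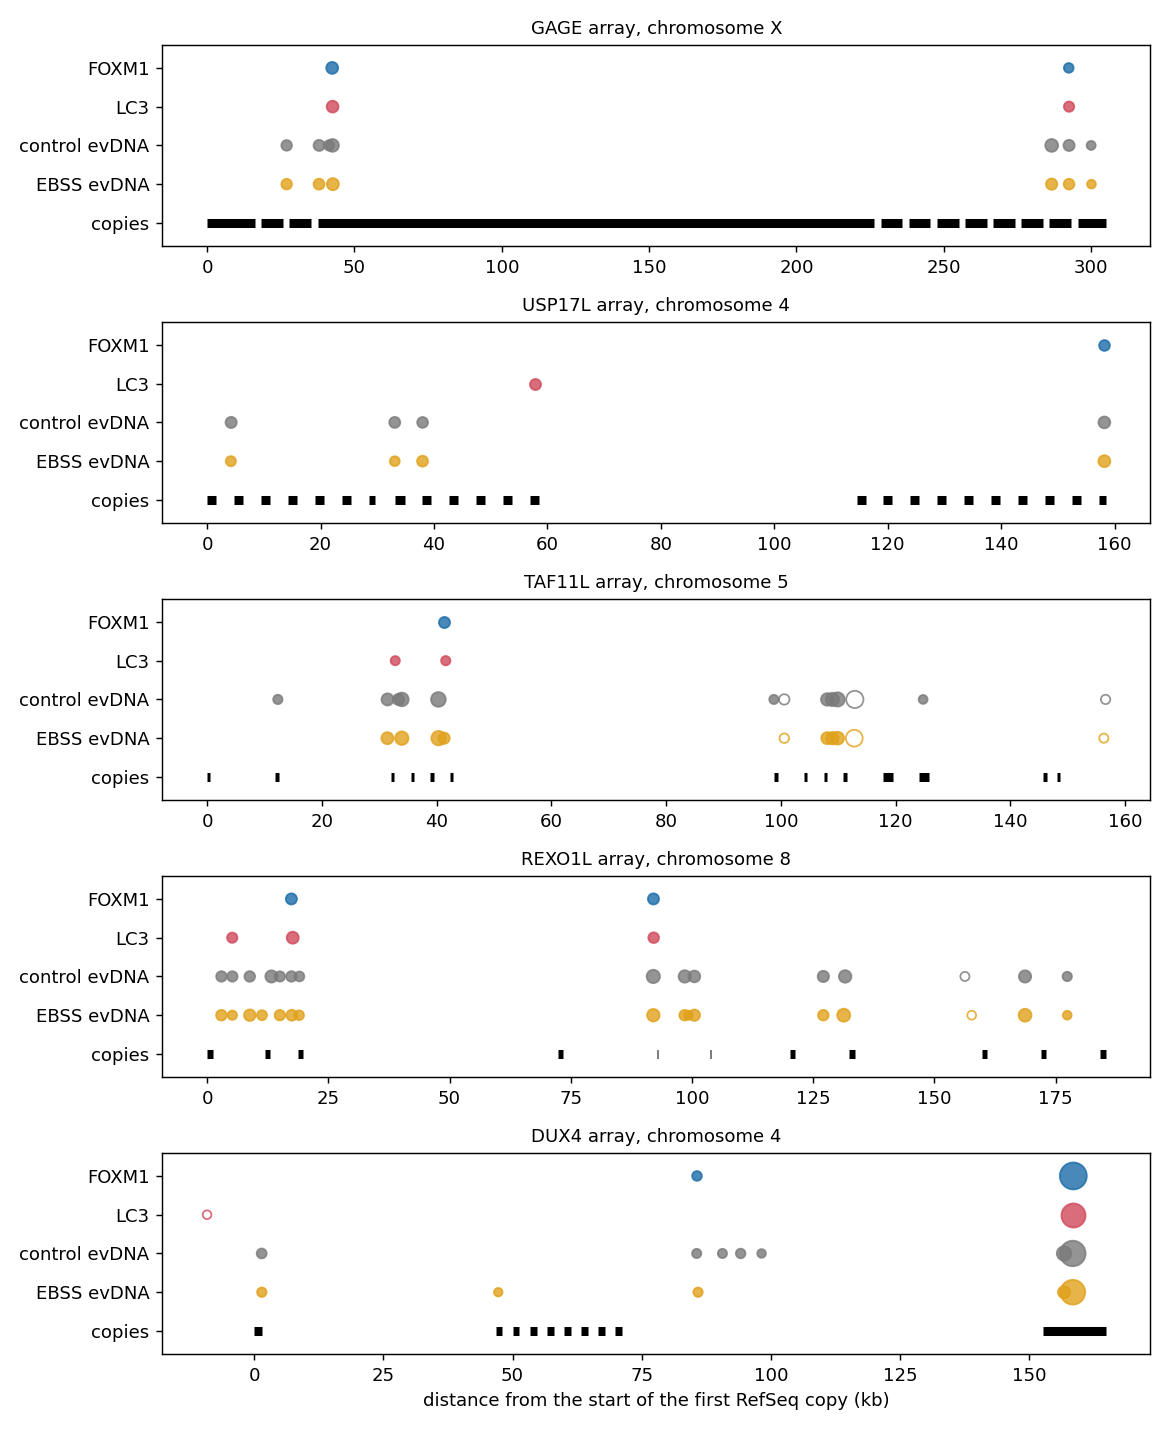
Peaks of the 4 lists along gene arrays, by distance along the array in kb; black bars are RefSeq copies, and point area grows with the summit fragments as a multiple of the genome background of the list. Hollow points are peaks that the authors' annotation gave another gene name, and long runs of copies without any peak stand beside shared places.

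GAGE proteins are antigens of tumours and testis. Their copies held 2 FOXM1, 2 LC3, 7 control and 6 EBSS peaks, of which 1, 2, 7 and 5 passed q of 0.05. Of 12 RefSeq copies over 305 kb of chromosome X, 4 had a peak, and the run of 6 from GAGE12C to GAGE12H had none. At GAGE1 (chrX:49595849-49596382) the summits held 10 FOXM1, 20 LC3, 32 control and 27 EBSS fragments, over backgrounds of 3.69, 4.89, 1.87 and 1.86, with folds of 2.34, 3.57, 11.5 and 9.78. At GAGE2E (chrX:49345435-49346612) they held 23, 34, 50 and 42 fragments, over backgrounds of 7.24, 11.7, 6.55 and 5.24, with folds of 2.91, 2.75, 6.76 and 6.89. The evDNA lists stood above both immunoprecipitations in fold at these 2 places, and in fragments also when counted as multiples of the genome background. The highest GAGE folds in evDNA were at GAGE2A, 11.8 in control (chrX:49589737-49591030) and 10.9 in EBSS, with 51 and 33 fragments. Those peaks began downstream of the window printed above, and GAGE13 had folds of 9.28 and 9.43 with 26 fragments in each. No FOXM1 or LC3 peak overlapped these peaks at GAGE2A and GAGE13. The place named after GAGE1, where FOXM1 and LC3 did have peaks, lies inside the RefSeq span of GAGE2A (49589496 to 49596824), so the name of the copy depends on the annotation.

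TAF11L copies, all 14 within 149 kb of chromosome 5, held 1 FOXM1, 2 LC3, 10 control and 7 EBSS peaks, of which 1, 1, 8 and 7 passed q of 0.05. Counting peaks of any name in the array, 9 of the 14 copies had one, and no run of more than 1 copy was without one. At TAF11L5 and TAF11L6 (chr5:17526114-17528089) the summits held 18 FOXM1, 12 LC3, 76 control and 72 EBSS fragments, over backgrounds of 4.31, 4.76, 9.38 and 7.34. The folds were 3.58, 2.26, 7.42 and 8.76, the FOXM1 and evDNA values being the highest of the family, and here the evDNA backgrounds were above those of the immunoprecipitations. These summits did not coincide. The EBSS peak with 72 fragments overlapped neither the FOXM1 nor the LC3 peak. The EBSS peak that overlapped both held 34 fragments, with a fold of 4.20. The control summit lay 40.32 kb along the array, against 41.36 kb for FOXM1 and 41.6 kb for LC3. The highest LC3 fold, 4.13 with 11 fragments, lay at TAF11L3 (chr5:17518983-17519286) without a peak of another list. At TAF11L9, the copy whose window is printed above, the peaks over the start held 48 control and 42 EBSS fragments, with folds of 4.18 and 4.33. The strongest evDNA peaks of the array carried another gene name and were not counted as members. They lay at AC233724.3 (chr5:17598952-17599406 in control evDNA), with 114 control and 106 EBSS fragments and folds of 9.36 and 10.2.

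USP17L copies held 1 FOXM1, 1 LC3, 4 control and 4 EBSS peaks. None of the FOXM1 or LC3 peaks passed q of 0.05, and all the evDNA peaks did. Of the 23 copies in the chromosome 4 array, 5 had a peak, and 9 neighbouring copies from USP17L24 to USP17L30 had none. At USP17L6P, the last copy of the array (chr4:9368598-9369045), the summits held 16 FOXM1, 39 control and 40 EBSS fragments. The FOXM1 background was 6.15, against 1.87 and 1.86 in evDNA, and the folds were 2.38, 13.9 and 14.3. At 3 other copies evDNA stood alone, with 32 control and 21 EBSS fragments at USP17L11, 30 and 18 at USP17L17, and 28 and 29 at USP17L18. The LC3 peak, with 27 fragments and a fold of 2.60, lay at USP17L22 (chr4:9268412-9268733), away from those.

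REXO1L copies, 11 pseudogenes over 185 kb of chromosome 8, held 2 FOXM1, 3 LC3, 14 control and 15 EBSS peaks, of which 0, 1, 14 and 10 passed q of 0.05. At REXO1L11P (chr8:85734347-85734794) the summits held 18 FOXM1, 23 LC3, 57 control and 47 EBSS fragments. The backgrounds were 5.54, 6.84, 1.87 and 1.86, and the control evDNA fold of 20.2 was the highest of any array copy, beside 2.91, 3.06 and 16.8 in the other lists. The highest EBSS fold, 18.2 with 51 fragments, was at REXO1L4P, where control evDNA had 44 fragments and a fold of 15.7 and the immunoprecipitations had no peak. At REXO1L3P (chr8:85659672-85660814) the summits held 18, 36, 25 and 29 fragments over backgrounds of 5.67, 18.6, 7.23 and 6.68, with folds of 2.85, 1.89, 3.16 and 3.91. LC3 had more fragments there than either evDNA list. At REXO1L8P (chr8:85647475-85648007) LC3 held 20, control 24 and EBSS 14 fragments, with folds of 3.06, 3.95 and 2.17.

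The other families had few peaks. FAM90A had 0 FOXM1, 1 LC3, 6 control and 1 EBSS peaks, with the highest LC3 and control folds, 1.84 and 4.87, at FAM90A24P and the EBSS fold of 3.78 at FAM90A2P, which also had a control fold of 4.17. The larger FAM90A array of chromosome 8, with 13 copies, also held 4, 9, 7 and 7 peaks that carried other gene names. They were not counted as members or places, though all 4 lists overlapped at AC084121.12 and AC084121.13. At AC084121.12 the summits held 13 FOXM1, 24 LC3, 11 control and 11 EBSS fragments, with folds of 2.98, 4.25, 4.18 and 4.19. At AC084121.13 (chr8:7766560-7767302 in FOXM1) they held 27, 47, 12 and 11 fragments, with folds of 2.91, 3.72, 4.03 and 4.19. At both, each immunoprecipitation held more fragments than either evDNA list, also as multiples of the genome background. PRR20 had peaks in EBSS evDNA alone, PRR20A (chr13:57139254-57139521, fold 3.49, −log10 q 0.831, 9 fragments) and PRR20B (chr13:57148116-57148425, fold 5.24, −log10 q 4.54, 14 fragments). SPANX genes encode nuclear proteins of sperm. SPANXB1 had 2 control evDNA peaks, 1 over its start (chrX:141002440-141002751, fold 3.25) and 1 downstream (chrX:141003177-141003441, fold 3.34). The peak over the start covered 204 bases of the promoter window of SPANXB1. The only FOXM1 peak, fold 2.41, lay upstream of SPANXN3, at a distance of -38314 bp. None of the SPANX peaks passed q of 0.05. CT45A with 10 copies and CT47A with 12 had 0 peaks in each list, which allows a share of up to 0.0268% of FOXM1, 0.0385% of LC3, 0.0104% of control evDNA and 0.0195% of EBSS evDNA peaks.

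The 9 places with all 4 lists were then set on a common scale, as multiples of the genome background of each list, which was 1.08 fragments for FOXM1, 1.64 for LC3, 1.87 for the control vesicles and 1.86 for the EBSS vesicles. On this scale summit heights lay close together at the DUX4 copies. At DUX4 they were 171 for FOXM1, 133 for LC3, 152 for control and 142 for EBSS evDNA, and at DUX4L20 they were 77.0, 59.2, 63.0 and 58.5. At TAF11L5 and TAF11L6 they were 16.7, 7.33, 40.6 and 38.7. The EBSS peak with 38.7 overlapped neither the FOXM1 nor the LC3 peak, and the EBSS peak that overlapped both stood at 18.25. The medians that follow use 38.7. Over the 9 places the FOXM1 summit was a median 0.800 times the control evDNA summit and above it at 3 of 9, and LC3 was 0.738 times and above it at 1. Against EBSS evDNA the medians were 0.957 and 0.921.

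Local background differed more than the summits did. On the same scale, the FOXM1 background was a median 2.00 times that of control evDNA, higher at 8 of 9 places, and the LC3 background 2.94 times, also higher at 8 of 9. Against EBSS evDNA the medians were 2.66, at 9 of 9, and 2.99, at 8 of 9. At DUX4 the background stood at 91.9 times the genome background in FOXM1 and 93.2 in LC3, against 9.70 in control and 8.57 in EBSS evDNA. The fold, which combines both, was lower in FOXM1 and LC3 than in either evDNA list at each of the 9 places, with median ratios to control evDNA of 0.397 and 0.311. The sources used here do not say which control library stood behind the background in each list, and its part in these ratios was not tested.

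**Figure D4:**
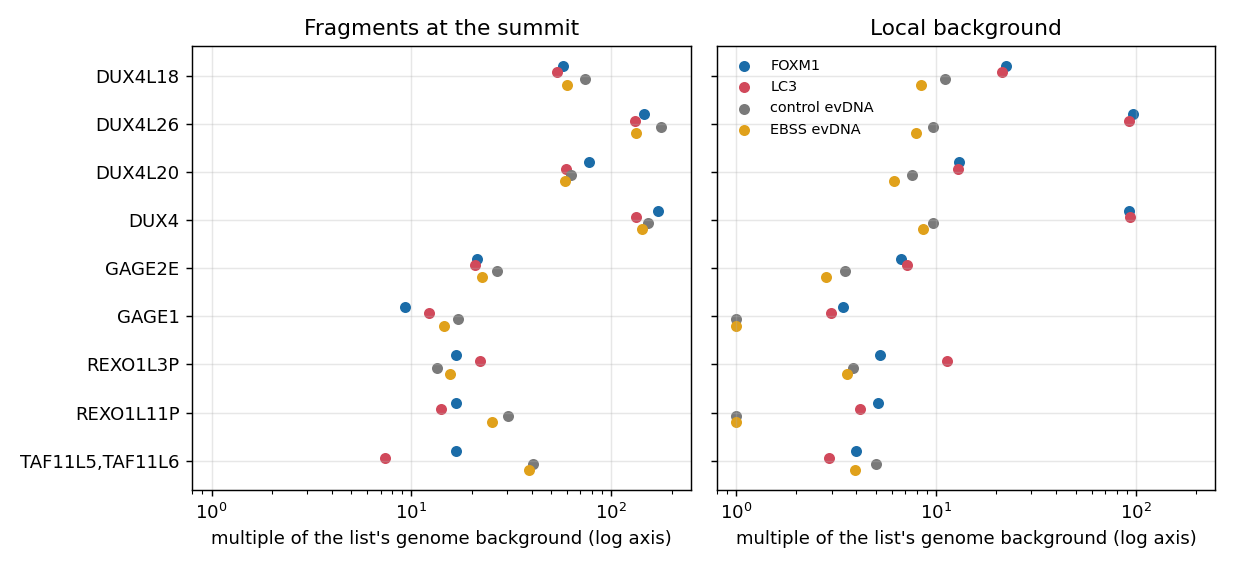
Summit fragments and local background at the 9 places with peaks of all 4 lists, each as a multiple of the genome background of its list, on log axes. At DUX4 the summits lie between 133 and 171 in the 4 lists, while the background is 91.9 and 93.2 in FOXM1 and LC3 and 9.70 and 8.57 in the evDNA lists.

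Of the places with an evDNA peak, 56 had one in both lists, 30 in control alone and 12 in EBSS alone. At the 56 places, which were picked for a peak in both lists, summit heights as multiples of the genome background had a Spearman coefficient of 0.951 across places, given as a description since places share libraries and reads. The EBSS height was a median 0.867 times the control height (range 0.569 to 1.39), lower at 43 places and higher at 13, and 49 of the 56 lay within 1.5-fold. By family the median was 0.835 over 26 DUX4 places, 0.847 over 6 GAGE places, 0.900 over 13 REXO1L places, 0.917 over 6 TAF11L places and 0.846 over 4 USP17L places. Over all 1817 other control peaks that met an EBSS peak the median was 0.964, with 51.1% higher in control, against 0.882 and 74.1% over the 58 member peaks. With 1 library each, a ratio of this size could not be set against replicate error.

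**Figure D5:**
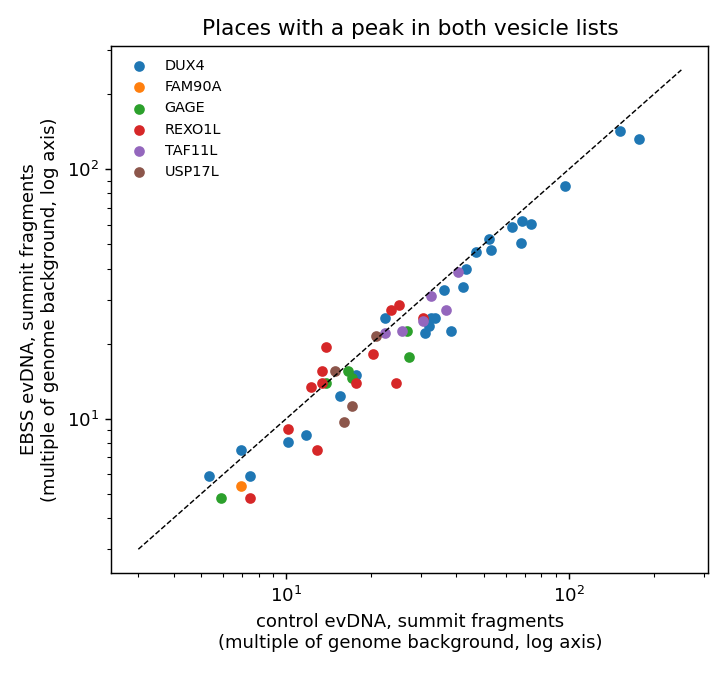
Summit height in control evDNA (x axis) and EBSS evDNA (y axis), as multiples of the genome background on log axes, at the 56 places that both lists held. Points follow the diagonal over the whole range, and 43 of 56 lie below it.

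Places of a single evDNA list were weaker. Control evDNA stood without EBSS evDNA at 30 places, with a median fold of 3.00, a highest fold of 4.87, at FAM90A24P and TAF11L7, and 11 peaks that passed q of 0.05. EBSS evDNA stood without control at 12 places, with a median fold of 2.80, a highest fold of 5.24, at PRR20B, and 1 peak that passed. At shared places the median folds were 5.17 and 5.00, and 54 control and 49 EBSS peaks passed.

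The array families were last set beside 9 other families of clustered genes, MAGEA, XAGE, PAGE, SSX, VCX, PRAMEF, KRTAP, DEFB and PCDHB, which were chosen with earlier results of these data known. Together these had 9 FOXM1, 15 LC3, 84 control and 58 EBSS peaks, of which 0, 2, 31 and 22 passed q of 0.05. The DEFB family of beta-defensin genes held 21 of those 31 and 21 of those 22. The highest evDNA folds in the comparison families were 16.8 in control and 14.6 in EBSS evDNA, of the same order as in the array families. MAGEA, a cancer-testis family like GAGE, had 0 peaks in each list.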

How the data were processed

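The data were 4 peak lists, 1 library each, grouped by the antibody and treatment labels. The labelled input library was not analysed here. Per the submitters' processing notes, the tools include FastQC 0.11.8 and fastp 0.20.0, and MACS3 3.0.0a6, BWA and ChIPseeker are also named, with hg38 as the build. The labels' protocols name both 50 bp single-end and 150 bp paired-end reads without assigning them to libraries. Per the file headers, each peak has the authors' fold over local background, a linear ratio, with its −log10 p-value and −log10 q-value. The score and the distance to the start of the named gene were deposited by the authors as well. Damaged headings of the p and q columns in the EBSS list were resolved by column position and by the recovery described next. The numbering of peaks skips 81 numbers for FOXM1, 33 for LC3, 270 for control and 243 for EBSS evDNA, and those peaks were not analysed here. The sources used here do not name the control of the peak calling, and read totals are unknown. Highest folds were picked within a list, and folds were also compared between lists at the places with all 4 lists.

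Entries of the same interval were reduced to their strongest summit. The summit fragments (a whole number) and the local background are the pair that gives both the fold, (pileup + 1) / (background + 1), and the Poisson p of a peak, which held within 0.01 for at least 99.97% of peaks and for all members. The genome background is the 1% quantile of backgrounds in a list. The 46 family promoter windows include none on chromosome 8. Overlap means at least 1 bp. Arrays are runs of at least 3 RefSeq copies of a family with gaps of up to 150 kb, with 10 kb on each side. Each peak in an array was given to the copy nearest its summit, at any distance. Shares have exact Clopper-Pearson 95% intervals, and limits for 0 peaks rest on 3 counts. Methods were tested on simulated data. Named copies are the one of highest fold per family and list, the one with peaks in the most lists per family, every place of 3 or 4 lists, every peak of families with at most 5, and CDKN2A. DUX4L16, DUX4L52, DUX4L15, GAGE13, TAF11L7, TAF11L9, USP17L11, USP17L17, USP17L18, AC233724.3, copies at the ends of runs and those whose promoter windows are discussed were named after their values were seen. Members and family lists were chosen with earlier results of these data known. Alternatives were no merging, a q threshold, a stricter q, members by overlap with the arrays, removal of high-background peaks, larger overlap, a 3 kb limit and removal of the DUX4 family. Python 3.11.15, numpy 2.4.6, pandas 2.3.3, scipy 1.17.1 and matplotlib 3.10.9 were used.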

Additional observations from a re-analysis of the deposited data

How the results depend on the processing

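No paired analysis was possible because each group had 1 library, and none could be left out for the same reason. No value changed sign, but orders between lists did. With peaks of q at most 0.05 only, members fell to 7 in FOXM1 and 8 in LC3, and their share of the list rose to 3.17% for FOXM1, 2.71% for LC3, 1.74% for control and 3.39% for EBSS evDNA. Counting overlap between such peaks, 100% of FOXM1, 76.1% of control and 98.0% of EBSS members met another list, and the control median fold was 4.59. At a −log10 q of at least 5, 3 FOXM1 and 2 LC3 members passed. Without high-background peaks 9 LC3 members remained, and the shares were 0.212% in control and 0.329% in EBSS evDNA. Without DUX4 the FOXM1 overlap was 85.7% and the control median fold 4.82. Within 3 kb of a start lay 47.4% of FOXM1, 73.3% of LC3, 62.5% of control and 65.2% of EBSS members. Keeping only peaks within 10 kb of the named gene, an alternative chosen after seeing the data, left 11 FOXM1 members, of which 100% met another list. In all, 23 values moved and 47 did not, beside 17 and 63 among counts of single families. Members by overlap with the arrays were 16 in FOXM1 and 22 in LC3, against 19 and 15 by name, and FOXM1 was also below LC3 at q of at most 0.05 (7 and 8) and within 10 kb (11 and 14). By overlap FAM90A had 10 LC3 and 9 control peaks, against 1 and 6, and at q of at most 0.05 REXO1L had 14 control and 10 EBSS peaks, against 14 and 15. The share in control evDNA fell below those of FOXM1 and LC3 at that q. The cause was not tested. Read totals are unknown, and the median summit of all peaks held 5 fragments in FOXM1, 8 in LC3, 9 in control and 8 in EBSS evDNA.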
